A study of Mus musculus with 75 samples.

Results

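Between E11.5 and E15.5, 102 named genes of the 26218 in the table were high for a short time in germ cells of the mouse ovary, with E13.5 as the high stage. They were picked on group means of log2(RPM + 1), where RPM is the number of reads of a gene scaled to a fixed total of reads assigned to genes (reads per M). A gene was a member where its female E13.5 mean lay at least 1.5 log2 units above E11.5 and at least 1.5 above female E15.5, with at least 10 RPM at female E13.5. Predicted names were dropped, which removed 6 of 108 genes. The E11.5, female E13.5 and female E15.5 libraries chose the members, so values in these 3 groups are a description and carry no test. The embryo groups were germ cells of ICR:C57BL/6 = 1:1 embryos, with 2 libraries per group. Daily groups from E12.5 to E15.5 were female or male, and those of the 3 days before (E9.5 to E11.5) carry no sex in the labels. Dppa3-EGFP Tg/0 marked the sorted cells up to E13.5 and Ddx4-RFP Tg/0 marked them later, so any difference that spans both reporters is one of stage and reporter together. The cultured groups were primordial germ cell-like cells (PGCLCs), germ cells made from embryonic stem cells, carrying Prdm1-mVenus Tg/0 and Dppa3-ECFP Tg/0. One line (129S1:C57BL/6 = 1:1) was sampled at day 0 of culture, at CT day 3, and under RB, RA and CT at days 5, 7 and 9, with 2 libraries each, and once under 0R3B at day 9. Other lines (DBA/2:C57BL/6 = 1:1) gave Stra8-/- cells (4 libraries, 2 of line SK1 and 1 each of lines SK2 and SK3) and wild type cells (2 libraries), at CT day 3 and under RB at days 5, 7 and 9. A C57BL/6 line with Gtrosa26tm1Sor/0 in addition gave 6 single libraries. CT, RA and RB are not spelled out in the labels and stand as group names. The study's title names retinoic acid and bone morphogenetic protein (BMP), and from general knowledge of the study CT is the control, RA retinoic acid and RB both factors. All cultured cells had been induced with BMP4 before culture day 0, the CT cells included.

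Female germ cells of the mouse leave the mitotic cycle and enter meiosis in the fetal ovary, while male germ cells in the testis stop dividing and become prospermatogonia. Retinoic acid acts through nuclear receptors and switches on Stra8, a gene needed for the entry into meiosis. BMPs are secreted ligands whose receptors phosphorylate SMAD proteins, which then act on genes such as Id2. The members hold targets of both pathways, parts of the WNT pathway, a meiotic cohesin, imprinted genes and many genes with no known role in meiosis.

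The starts of 3 members are shown because these genes were higher under RB than under RA on each of 3 culture days, as described further on. Each run is RefSeq sequence of GRCm38.p6, from 250 bases before to 50 bases after a gene start, 5′ to 3′ on the minus strand, the strand of the gene in each case. Phlda2 lies at chr7:143502475-143502774, Id2 at chr12:25096043-25096342 and Zglp1 at chr9:21067044-21067343. Capitals mark matches, on either strand, to 4 motifs. They are TATAAA, the core box bound by TBP, and GGCGCC, a GC-rich element that SMAD proteins are known to bind. The others are CACGTG, an E-box, and AGGTCA, a nuclear receptor half-site. A further pair of motifs had no match in these windows, namely AGATAA, a site of zinc finger factors such as Gata2, and TAATTG, a homeobox core.
Phlda2: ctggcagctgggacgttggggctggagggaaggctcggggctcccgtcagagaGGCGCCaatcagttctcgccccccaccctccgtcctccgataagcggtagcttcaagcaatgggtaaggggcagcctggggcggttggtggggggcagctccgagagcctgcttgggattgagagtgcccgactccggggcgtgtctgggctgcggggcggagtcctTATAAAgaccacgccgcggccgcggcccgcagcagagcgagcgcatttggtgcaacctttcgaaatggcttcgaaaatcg
Id2: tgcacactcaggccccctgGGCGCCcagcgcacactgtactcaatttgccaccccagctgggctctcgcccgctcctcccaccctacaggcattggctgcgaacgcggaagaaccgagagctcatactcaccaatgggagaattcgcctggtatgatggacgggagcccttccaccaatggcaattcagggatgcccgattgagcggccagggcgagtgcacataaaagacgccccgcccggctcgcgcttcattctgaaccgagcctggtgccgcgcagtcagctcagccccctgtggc
Zglp1: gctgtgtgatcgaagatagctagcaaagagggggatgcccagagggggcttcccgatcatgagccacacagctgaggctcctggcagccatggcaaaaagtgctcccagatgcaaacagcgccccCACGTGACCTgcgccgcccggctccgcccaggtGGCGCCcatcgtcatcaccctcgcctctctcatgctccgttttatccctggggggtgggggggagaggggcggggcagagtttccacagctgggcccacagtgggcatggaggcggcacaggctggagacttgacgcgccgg
GGCGCC begins at -197 from the start of Phlda2, at -231 from that of Id2 and at -92 from that of Zglp1. It stands in 11.9% of the 32851 windows of this length in the RefSeq table. The motif is not particular to these 3 genes, as 38 of the 107 windows found for members hold it. TATAAA begins at -30 in Phlda2, and 13.6% of all windows hold it. In Zglp1, CACGTG (in 7.15% of all windows) at -125 overlaps by its last bases with the half-site read on the other strand, at -121 (in 16.3% of all windows). A match is a description of letters and not a binding site. Windows were found for 78 of the 102 members, so a comparison of base composition or motifs over the members is void.

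Depth, estimated from the step that 1 read makes in each library, was 1.08 to 15.6 M reads (M for mega) with a median of 3.13 M. A level of 3 reads, the smallest amount taken as measured, came to 0.192 to 2.78 RPM. Replicate libraries had Pearson correlations of 0.978 to 0.993 across genes, and no 2 were identical. Germ cell markers summed to 5520 and 5910 RPM in female E13.5 libraries, and 6 of 18 markers of gonadal somatic cells, Sox9, Amh and Nr5a1 among them, were listed at 0 there. The somatic markers summed to 41.0 to 49.0 RPM in those libraries, those of blood and endothelium to 134 to 144 RPM and those of fibroblasts to 72.4 to 74.7 RPM. Whether replicates are separate animals or cultures is not in the labels, and p-values therefore measure spread between these libraries, which may be technical. In sorted bulk samples, fewer cells of a type and less RNA per cell cannot be told apart.

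In the ovary the members made a narrow peak. Over the 102 genes the median of the group means was 4.17 RPM at E11.5, 12.2 at female E12.5, 21.6 at female E13.5, 8.35 at female E14.5 and 4.25 at female E15.5. The female mean was highest at E13.5 for 99 members and at E12.5 for 3. At E12.5 a median of 65.7% of the log2 rise was already present, and at E14.5 a median of 59.6% of the log2 fall had taken place. Levels at the peak ran from 10.0 to 543 RPM, with 61 members at 20 RPM or more and 7 at 100 or more. These reads come from the 3′ ends of transcripts, so RPM was set side by side between genes with no correction for length. Near the limit of the rule, Efna4 (an ephrin ligand) and Tob2 (an antiproliferative factor) were inside with rises of 1.51 log2 units. Ppp2r2c missed it with a rise of 1.49 and Angptl4 with a fall to E15.5 of 1.49.

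The gene with the highest peak was Phlda2, an imprinted gene known for restraining growth of the placenta. It had 528 and 559 RPM at female E13.5, after 502 and 435 at female E12.5 and 166 and 153 at E11.5, and then 51.8 and 26.6 at female E14.5 and 11.3 and 2.23 at female E15.5. In males it was at 7.81 and 5.84 RPM at E12.5 and at 0.635 and 3.94 at E13.5. Its level was thus already high before the sexes were separated, 314 and 275 RPM at E9.5, and was low in both male libraries one day after E11.5. Slc22a18, an imprinted transporter gene whose end lies 2.21 kb from Phlda2 on chromosome 7, had 26.5 and 33.0 RPM at female E13.5 and 0.952 and 0.328 RPM at male E13.5. Dusp9, an X-linked phosphatase of MAP kinases, had 273 and 259 RPM at female E13.5 and 19.2 and 23.1 at E11.5. Rec8, the cohesin subunit of meiotic chromosomes, had 246 and 254 RPM at female E13.5 and a mean of 10.0 RPM at E11.5. Both genes were higher there than in every library of the earlier stages. Gata2, a zinc finger transcription factor and BMP target, had 233 and 253 RPM at female E13.5 and 2.22 and 1.97 at male E13.5.

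**Figure D1:**
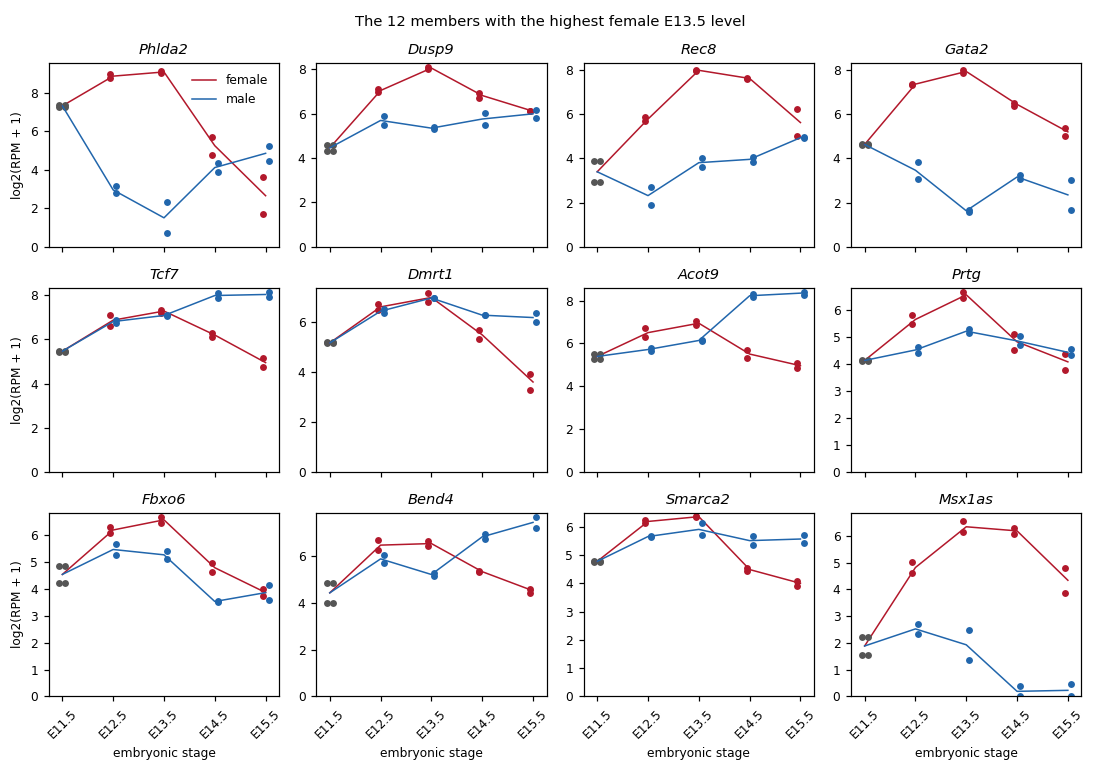
Levels of the 12 members with the highest female E13.5 mean, as log2(RPM + 1), by embryonic stage. Points are libraries (2 per group, E11.5 in grey and shared by both lines), lines join group means, red is female and blue is male; Phlda2, Rec8, Gata2 and Msx1as separate the sexes while Tcf7, Acot9 and Bend4 end higher in males.

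One day before the peak the sexes already differed in many members. At E12.5, in groups the rule did not use, 44 of 102 members were higher in females than in males and 2 were lower. Of all 12567 genes tested in the embryo, 3.77% were called higher and 2.75% lower. A call needed a Benjamini-Hochberg adjusted p below 0.05 in limma and a difference of at least 1 log2 unit. The median difference was 1.07 log2 units over the members and 0.00 over all genes. Phlda2, at 502 and 435 RPM in females against 7.81 and 5.84 RPM in males, differed by 5.91 ± 0.44 log2 units (SE, n = 2 each, adjusted p = 2.54e-09). Calcoco2, which encodes an autophagy receptor, had 74.1 and 70.6 RPM in females and 1.86 and 4.12 RPM in males (4.26 ± 0.46, adjusted p = 1.31e-06). The female and male libraries did not overlap for either gene. Rec8 had 50.4 and 57 RPM in females and 5.58 and 2.75 RPM in males (3.46 ± 0.33, adjusted p = 2.17e-07). Gata2 stood at 165 and 161 RPM in females and 7.44 and 13.4 RPM in males (3.90 ± 0.31, adjusted p = 1.15e-08). Again each female library lay above each male library.

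Several pathway targets among the members were higher in females at E12.5, though not Sp5, a zinc finger target of WNT signals, with means of 15.1 RPM in females and 21.1 RPM in males (-0.46 ± 0.36, adjusted p = 0.456). Zglp1, a GATA-like zinc finger factor known to be needed for the oogenic fate, had 59.8 and 46.9 RPM in females and 10.4 and 9.61 RPM in males (2.29 ± 0.32, adjusted p = 3.96e-05). Id2, an inhibitor of basic helix-loop-helix factors, had 56.0 and 32.5 RPM in females and 6.70 and 6.87 RPM in males (2.49 ± 0.31, adjusted p = 8.07e-06). Crabp2, a carrier of retinoic acid inside the cell, had 18.4 and 21.5 RPM in females and 1.86 and 3.09 RPM in males (2.61 ± 0.33, adjusted p = 1.11e-05). Zglp1, Id2 and Crabp2 were called and did not overlap between the sexes. Of a list of 20 BMP targets, 15 were tested and 9 were higher in females, Id1, Id3, Id4, Cdx2 and Msx2 among them, and none was lower (median 1.73 log2 units, against 0.00 over all genes). Of 16 retinoic acid targets 10 were tested and 5 were higher in females, with none lower. The members lower in females at E12.5 were Sfrp2, a secreted WNT modulator, and Sirpa, an inhibitory receptor. Sfrp2 had 15.6 and 7.06 RPM in females and 30.5 and 30.9 RPM in males (-1.45 ± 0.40, adjusted p = 0.0169). Sirpa had 7.30 and 2.26 RPM in females and 13 and 11 RPM in males (-1.32 ± 0.42, adjusted p = 0.0398). Without female E12.5 replicate 2 these differences were -0.93 and -0.64 and were not called, and neither was called without either male library, at -1.46 and -1.44 for Sfrp2 and -1.2 and -1.43 for Sirpa. Summed markers of fibroblasts were 90.3 to 118 RPM in females and 53.9 to 55.1 RPM in males (6 of 9 at 0 in the female group, 3 of 9 in the male), and their part in these differences was not tested.

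After the peak most called members were below their level before it. Between female E14.5 and female E12.5, 5 of 102 members were higher and 36 were lower, where 23.4% of all genes were higher and 20.8% lower. The median was -0.58 log2 units over the members and 0.03 over all genes. Calcoco2 had 5.30 and 1.10 RPM at E14.5 and 74.1 and 70.6 RPM at E12.5 (-4.33 ± 0.46, adjusted p = 2.01e-08). Phlda2 had 51.8 and 26.6 RPM at E14.5 and 502 and 435 RPM at E12.5 (-3.62 ± 0.44, adjusted p = 1.63e-07). Neither gene's libraries overlapped. Rec8, at 197 and 190 RPM at E14.5 and 50.4 and 57 RPM at E12.5, was among the 5 higher (1.83 ± 0.33, adjusted p = 4.04e-05). Others were Msx1as, listed as the antisense transcript of Msx1 (66 and 78.1 RPM at E14.5, 31.6 and 23.4 at E12.5, 1.37 ± 0.45, adjusted p = 0.0108), and Sp5 (39.0 and 32.9 RPM at E14.5, 16.3 and 13.8 at E12.5, 1.2 ± 0.36, adjusted p = 0.00636). Use of strand in counting is not given in the sources used here, so reads of Msx1 and of its antisense transcript cannot be told apart. The Msx1as call was lost without female E12.5 replicate 2 (1.16) and without female E14.5 replicate 2 (1.25). With a pseudocount of 0.1 RPM neither the Msx1as (1.4) nor the Sp5 (1.25) call was kept. Summed markers were 43.9 to 55.3 RPM at female E14.5 and 34.5 to 38.5 RPM at female E12.5 for gonadal somatic cells (5 and 7 of 18 at 0), 62.6 to 113 RPM and 137 to 156 RPM for blood and endothelium (3 and 4 of 13 at 0), and 59.8 to 71.5 RPM and 90.3 to 118 RPM for fibroblasts (0 and 6 of 9 at 0). Their part was not tested. In this comparison the reporter changed with the stage, and the effects cannot be told apart.

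By E14.5 the sex difference had split in both directions. At that stage 29 members were higher in females and 27 lower, where 22.4% of all genes were higher and 25.9% lower, so both shares lay near the background. The highest difference was in Msx1as, with 66 and 78.1 RPM in females and 0.301 and 0 RPM in males (6.00 ± 0.45, adjusted p = 4.53e-11). Ccnd1, cyclin D1 of the mitotic cycle, had 43.9 and 46.8 RPM in females and 1.81 and 5.72 RPM in males (3.42 ± 0.42, adjusted p = 1.77e-07). In both, female and male libraries lay apart. In the other direction, Fhl1, a LIM domain protein, had 17.4 and 17 RPM in females and 187 and 219 RPM in males (-3.48 ± 0.20, adjusted p = 3.16e-13). Acot9, a mitochondrial acyl-CoA thioesterase, had 50.2 and 38.9 RPM in females and 313 and 284 RPM in males (-2.73 ± 0.17, adjusted p = 2.03e-12). Here the male libraries were the high ones, again with no overlap. The change of the female minus male difference, E14.5 less E12.5, was itself tested, and 7 members had a higher difference at E14.5 and 44 a lower one. Over all genes 19.8% changed upwards and 23.2% downwards. Crabp2 changed most downwards, by -4.82 ± 0.46 log2 units (adjusted p = 1.09e-08). It had 14.1 and 5.48 RPM in females and 41.6 and 48.6 RPM in males at E14.5, where males were the high group, the reverse of E12.5. At E14.5 summed markers of gonadal somatic cells were 43.9 to 55.3 RPM in females and 74.9 to 129 RPM in males (5 and 2 of 18 at 0), those of blood and endothelium 62.6 to 113 RPM and 55.3 to 215 RPM (3 and 4 of 13 at 0), and those of fibroblasts 59.8 to 71.5 RPM and 67.7 to 142 RPM (0 of 9 at 0 in both). Their part was not tested.

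In the testis the members had no common peak at E13.5. Their male mean was highest at E12.5 for 16 members, at E13.5 for 20, at E14.5 for 14 and at E15.5 for 52. From E12.5 to E13.5, 8 members were higher at male E13.5 and 4 were lower, against 2.44% and 1.89% of all genes. Fhl1 was higher, with 34.9 and 32.2 RPM at E13.5 and 10.8 and 12.7 RPM at E12.5 (1.44 ± 0.20, adjusted p = 6.88e-05). Gata2 was lower, with 2.22 and 1.97 RPM at E13.5 and 7.44 and 13.4 RPM at E12.5 (-1.83 ± 0.31, adjusted p = 0.000722). Both genes had separate groups. The 12 calls became 4 without male E12.5 replicate 2, 3 without male E13.5 replicate 1 and 6 without male E13.5 replicate 2. Dmrt1, a DM domain factor of germ cells and the testis, was near the same level in both sexes at its peak, with 142 and 109 RPM at female E13.5 and 122 and 123 RPM at male E13.5. All male means were under 5 RPM in 22 members, and in 47 the male E13.5 mean was under 25% of the female one. The rule chose members for a high female E13.5 mean, which favours a low male share. The count of 47 is thus a description, with no share over all genes beside it. The filter took in female libraries, so the 22 are part of the counts of male peak stages and of all male tests. At such levels a male peak stage says little and a call between male stages was less likely.

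Later in the testis more members were higher than lower. Male E15.5 against male E13.5 had 39 members higher and 17 lower, where 23.4% of all genes were higher and 16.1% lower. The median was 0.58 over the members and 0.12 over all genes. Quantile normalization gave 28 members higher and 23 lower, where 2473 of the 12567 genes tested were higher and 2701 lower. Met, the receptor of hepatocyte growth factor, had 18.5 and 23.6 RPM at male E15.5 and 0.635 and 0.328 RPM at male E13.5 (3.90 ± 0.49, adjusted p = 3.11e-07). Fam132a, a secreted protein also called adipolin, had 135 and 132 RPM at male E15.5 and 9.52 and 8.86 RPM at male E13.5 (3.73 ± 0.54, adjusted p = 2.74e-06). The groups lay apart in both. Acot9, at 310 and 340 RPM at male E15.5 against 67.0 and 71.4 RPM at male E13.5, was also higher (2.22 ± 0.17, adjusted p = 1.45e-10). Sfrp2 fell, with 17 and 4.94 RPM at male E15.5 and 102 and 78.4 RPM at male E13.5 (-3.13 ± 0.40, adjusted p = 4.15e-07), as did Ascl2, a basic helix-loop-helix factor, with 8.52 and 9.53 against 50.5 and 42.7 RPM (-2.24 ± 0.50, adjusted p = 0.000506). For 24 members the male E15.5 mean lay above the female E13.5 mean. The reporter changed between these stages too. Summed markers of gonadal somatic cells were 71.7 to 73.1 RPM at male E15.5 and 42.1 to 42.7 RPM at male E13.5 (1 of 18 and 2 of 18 at 0), those of blood and endothelium 217 to 355 RPM and 66.5 to 67.1 RPM (1 and 7 of 13 at 0), and those of fibroblasts 101 to 122 RPM and 26.3 to 35.5 RPM (0 and 4 of 9 at 0). Their part in these changes was not tested.

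Before E11.5 some members had an earlier high level. The E9.5 mean lay above the E11.5 mean in 65 members, and in 7 it was at least 3 times as high and at least 10 RPM. Crabp2 averaged 118 RPM at E9.5, 6.74 at E11.5 and 24.6 at female E13.5. Prtg, protogenin, a surface receptor of the early embryo, averaged 54.4 RPM at E9.5, 16.4 at E11.5 and 93.9 at female E13.5, and Ccnd1 averaged 34.6, 4.21 and 78.4 RPM at those stages. The other 4 were Sfrp2, Msx1as, Pxdn and Zfp503. These values share E11.5 with the rule and were not tested. The rule asked for an E11.5 mean well under that of female E13.5, which favours other stages lying above E11.5. No share over all genes was computed for these counts, which are a description only. Summed markers of blood and endothelium were 3600 to 3750 RPM at E9.5 and 122 to 137 RPM at E11.5 (0 and 3 of 13 at 0), and those of fibroblasts 200 to 207 RPM and 95.3 to 115 RPM (0 and 5 of 9 at 0). Their part in the E9.5 levels was not tested.

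**Figure D2:**
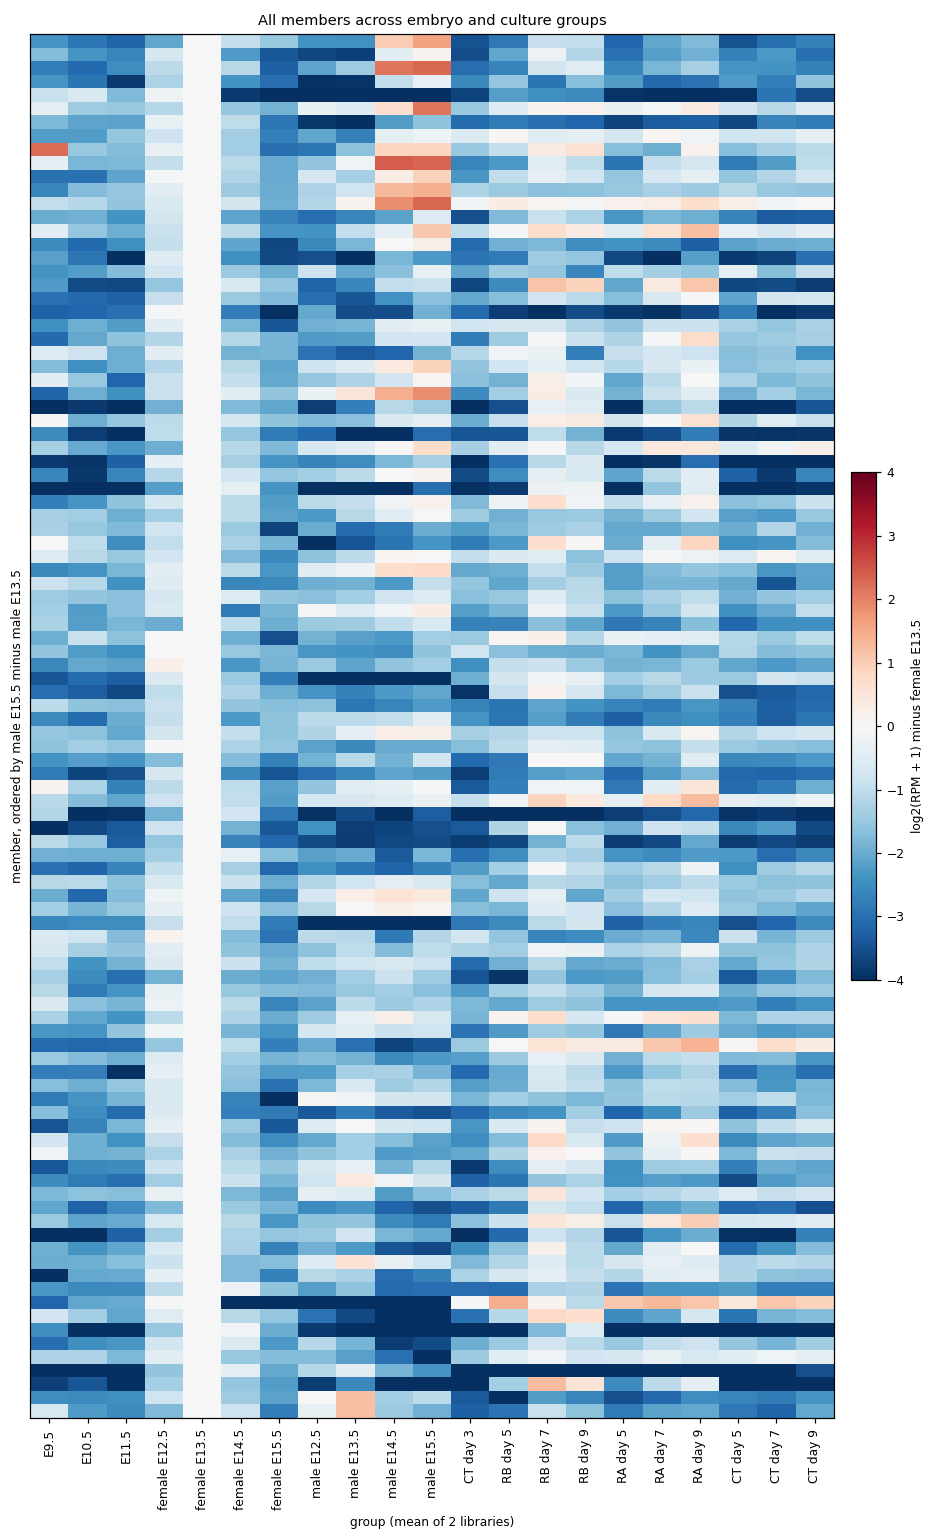
All 102 members (rows, ordered by male E15.5 minus male E13.5) in 21 groups (columns, means of 2 libraries), coloured by log2(RPM + 1) minus the value at female E13.5, with the scale limited to 4 units. Blue is below and red above female E13.5; several of the upper rows are red in the male E14.5 and E15.5 columns, and the RB day 7 column is paler than the CT columns.

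In culture, 95 of the 102 members passed the filter of 5 RPM in at least 2 libraries of the 129S1:C57BL/6 line. The other 7 were Ascl2, Crym, Ebf3, Fbxl7, Myo5b, Slc6a17 and Sp5. RB was compared with CT on the same day, and the most members were called at day 7. At day 5, 8 members were higher under RB and 0 lower, against 0.556% and 0.118% of all 11873 genes tested. At day 7, 59 were higher and 0 lower, against 15.7% and 3.62%, with a median of 1.36 log2 units over the members and 0.22 over all genes. At day 9, 34 were higher and 5 lower, against 24.6% and 12.1%, with medians of 0.69 and 0.19. At an unadjusted p below 0.05, 1 member was lower at day 5 and 1 at day 7. Centring each library on its median gave 44 members higher and 1 lower at day 7, where 1249 and 826 of all genes were called. At day 9 it gave 29 and 7, against 2137 and 2266 genes. Quantile normalization gave 40 and 4 at day 7, against 1035 and 998 genes. It gave 27 and 10 at day 9, against 2103 and 2378 genes.

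Rec8 had 192 and 235 RPM under RB at day 7 and a mean of 11.3 RPM under CT (4.12 ± 0.24, adjusted p = 1.69e-11). At day 5 it stood at 15.4 and 17.9 RPM under RB and 14.7 and 9.74 RPM under CT. The rise thus came after day 5, and the day 7 groups were far apart. Fut4, a fucosyltransferase, had 77.6 and 71.1 RPM under RB and 0.245 and 0.309 RPM under CT at day 7 (5.88 ± 0.39, adjusted p = 1.82e-10). It was called at day 5 as well, with 8.40 and 15.4 RPM under RB and 0 in both CT libraries (adjusted p = 4.82e-06). CT was under the level of 3 reads in all 4 of these libraries, so the fitted value depends on the pseudocount. Rgs10, which speeds up GTP hydrolysis by G proteins, had 47.6 and 60.8 RPM under RB and 0.980 and 1.24 RPM under CT at day 7 (4.70 ± 0.39, adjusted p = 7.73e-09). Dusp9 was among the 8 called at day 5, with 145 and 137 RPM under RB and 23.8 and 21.4 RPM under CT at day 5 (2.59 ± 0.18, adjusted p = 1.94e-09).

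Calcoco2 changed direction between the days. It had 252 and 176 RPM under RB and 111 and 93.6 RPM under CT at day 5 (1.04 ± 0.23, adjusted p = 0.0254). At day 9 it had 43.3 and 29.2 RPM under RB and 148 and 137 RPM under CT (-1.97 ± 0.23, adjusted p = 1.73e-07). RB was the high group on day 5 and the low one on day 9, without overlap on either day. Efna4 was also lower at day 9, with 6.35 and 5.10 RPM under RB and 15.1 and 14.2 RPM under CT (-1.23 ± 0.30, adjusted p = 0.00157), a call lost with a pseudocount of 5 RPM (-0.88). Phlda2, the highest member in the ovary, was lower in culture than at female E13.5, with 113 and 87.4 RPM under RB and 82.6 and 61.2 RPM under CT at day 7 (0.48 ± 0.26, adjusted p = 0.17, not called). Summed markers of gonadal somatic cells were 49.0 to 60.3 RPM under RB and 38.6 to 43.2 RPM under CT at day 7, with 4 and 8 of 18 at 0. Those of fibroblasts and feeders were 109 to 131 RPM and 163 to 221 RPM (2 and 1 of 9 at 0). At day 9 the somatic markers were 76.0 to 110 RPM under RB and 27.4 to 39.2 RPM under CT (4 and 7 of 18 at 0). The other lists went the other way at day 9. Markers of blood and endothelium were 23.2 to 35.4 RPM under RB and 78.4 to 103 RPM under CT (7 of 13 at 0 in both). Those of fibroblasts and feeders were 63.6 to 176 RPM and 137 to 234 RPM (1 and 0 of 9 at 0), with overlap. The part of all these markers was not tested.

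**Figure D3:**
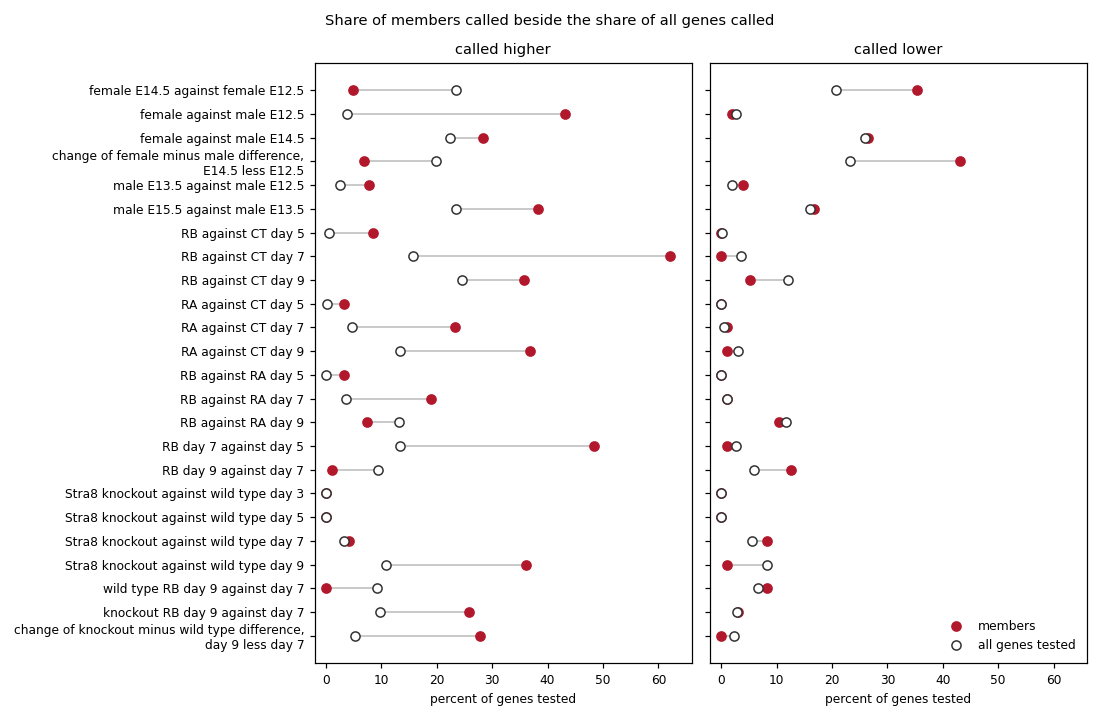
Percent of members called (red) and of all genes tested (open) in each comparison, higher on the left panel and lower on the right. Of the rows, RB against CT day 7 has the widest gap, with 62.1% of tested members and 15.7% of all genes higher; members lie below all genes among those higher at RB day 9 against day 7.

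RA against CT shares its CT libraries with RB against CT, so the comparisons are given side by side. Under RA, 3 members were higher and 0 lower at day 5 (0.227% and 0.0168% of all genes), 22 higher and 1 lower at day 7 (4.68% and 0.531%), and 35 higher and 1 lower at day 9 (13.3% and 3.0%). At an unadjusted p below 0.05 the day 5 numbers were 13 and 6. Rec8 had 82.9 and 82.7 RPM under RA at day 7 and 156 and 200 RPM at day 9, against 16.7 and 14.9 RPM under CT at day 9 (3.40 ± 0.24 at day 9, adjusted p = 9.18e-10). Prtg had 137 and 162 RPM under RA at day 9 and 21.9 and 23.9 RPM under CT (2.65 ± 0.23, adjusted p = 1.54e-08). In both genes all RA libraries lay above the CT libraries. Leaving out CT day 5 replicate 2 gave 1 call at day 5, and at day 7 the 23 calls became 13 without CT replicate 1 and 14 without RA replicate 2. With quantile normalization day 7 had 14 members higher and 1 lower, against 297 and 177 of all genes. Day 9 had 21 and 4, against 861 and 815 genes. Median centring at day 9 gave 29 and 3, against 1052 and 670 genes. At day 9 summed markers of gonadal somatic cells were 64.6 to 71.2 RPM under RA and 27.4 to 39.2 RPM under CT (4 and 7 of 18 at 0), those of fibroblasts and feeders 243 to 335 RPM and 137 to 234 RPM (0 of 9 at 0 in both), and those of blood and endothelium 54.4 to 58.4 RPM and 78.4 to 103 RPM (7 of 13 at 0 in both). Their part was not tested.

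Directly against RA, RB had 3 members higher and 0 lower at day 5 (0.0421% and 0.0% of all genes), 18 higher and 1 lower at day 7 (3.58% and 1.04%), and 7 higher and 10 lower at day 9 (13.1% and 11.7%). The day 9 shares lay near or under the background. The 3 at day 5 were Phlda2, Id2 and Zglp1, whose starts are printed above, and at day 5 an unadjusted p below 0.05 gave 11 higher and 1 lower. Phlda2 had 139 and 99.9 RPM under RB and 43.3 and 28 RPM under RA at day 5 (1.73 ± 0.26, adjusted p = 0.00564), and 108 and 78.9 RPM under RB and 30.2 and 28.4 RPM under RA at day 9 (1.62 ± 0.26, adjusted p = 3.19e-05). Id2 had 102 and 104 RPM under RB and 11.3 and 15.2 RPM under RA at day 7 (2.88 ± 0.24, adjusted p = 1.16e-07). Zglp1 had 27.7 and 35.2 RPM under RB and 5.05 and 2.70 RPM under RA at day 7 (2.77 ± 0.40, adjusted p = 0.000122). For each of these genes and days every RB library was above every RA library. Msx1as, at 19.3 and 26.9 RPM under RB and 0.595 and 1.01 RPM under RA at day 7, differed by 3.73 ± 0.40 (adjusted p = 3.33e-06). The day 5 calls were sensitive to single libraries. Of the 3 calls 0 were left without RB replicate 1 or without RA replicate 2, and 1 was left without RB replicate 2. Phlda2 was at 1.49 and 1.42 without RB replicate 1 and RA replicate 2, and Id2 at 1.23 to 1.49 and not called without any 1 library. At day 7 the 19 calls became 8 without RB replicate 2. Summed markers of gonadal somatic cells at day 7 were 49.0 to 60.3 RPM under RB and 37.1 to 37.7 RPM under RA (4 and 6 of 18 at 0), and those of fibroblasts and feeders 109 to 131 RPM and 177 to 183 RPM (2 of 9 at 0 in both). At day 9 those of blood and endothelium were 23.2 to 35.4 RPM under RB and 54.4 to 58.4 RPM under RA (7 of 13 at 0 in both), and those of fibroblasts and feeders 63.6 to 176 RPM and 243 to 335 RPM (1 and 0 of 9 at 0). Their part was not tested.

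**Figure D4:**
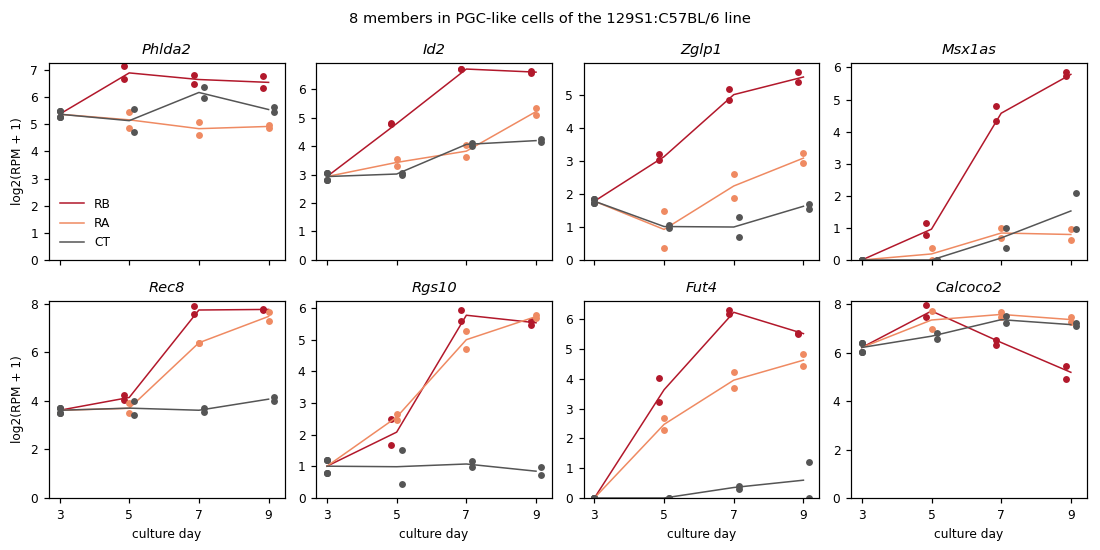
Levels of 8 members as log2(RPM + 1) in PGCLCs of the 129S1:C57BL/6 line by culture day, under RB (red), RA (orange) and CT (grey). Points are libraries, lines join means of 2, and day 3 is the CT day 3 group in each course; at day 7 Id2, Zglp1, Msx1as and Fut4 lie highest under RB, and at day 9 Calcoco2 lies lower under RB (43.3 and 29.2 RPM) than under CT (148 and 137 RPM).

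The members within each pathway list can be set beside the rest of that list. Of 20 BMP targets 4 are members (Gata2, Hand1, Id2 and Zglp1) and 16 were tested in this line. At day 7, 12 of the 16 were higher under RB than under RA, Hand1, Id2 and Zglp1 with Id1, Id3, Id4 and Smad6 among them, and 0 were lower (median 1.88, against 0.10 over all genes). Gata2 had 221 and 228 RPM under RB and 107 and 119 RPM under RA at day 7 (0.98 ± 0.20, adjusted p = 0.00416, under the limit of 1), and it was called at day 9 (1.12 ± 0.20, adjusted p = 0.000114). Of 16 retinoic acid targets 2 are members (Crabp2 and Rec8) and 15 were tested. At day 9, 12 were higher under RA than under CT and 1 was lower, while between RB and RA at day 9 none was higher and 7 were lower, among them Cyp26a1, an enzyme that breaks down retinoic acid, and Hoxb1. Crabp2 had 47.3 and 30.6 RPM under RB and 20.8 and 36.9 RPM under RA at day 9 (0.44 ± 0.46, adjusted p = 0.465), with overlapping groups. The WNT and Notch list holds Axin2, Ccnd1 and Sp5. Axin2, a feedback inhibitor of WNT signals, had 4.67 and 8.32 RPM under RB and 2.2 and 1.55 RPM under CT at day 7 (1.35 ± 0.50, adjusted p = 0.043). Ccnd1 stayed low in this line, with 2.04 and 7.04 RPM under RB and 3.67 and 5.57 RPM under CT at day 7, and Sp5 did not pass the filter.

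Along the RB days, calls were mostly upwards before day 7 and mostly downwards after it. RB day 7 against day 5 had 46 of 95 members higher, 1 lower and 48 not called (13.4% and 2.65% of all genes higher and lower), with medians of 0.99 over the members and 0.19 over all genes. Median centring gave 33 and 3 (1062 and 677 of all genes), and quantile normalization 30 and 3 (868 and 842). RB day 9 against day 7 had 1 member higher and 12 lower (9.44% and 5.9%). Prtg had 64.7 and 54.7 RPM at day 9 and 161 RPM in both libraries at day 7 (-1.42 ± 0.23, adjusted p = 5.68e-05). Dmrt1 had 71.5 and 58.8 RPM at day 9 and 123 and 152 RPM at day 7 (-1.06 ± 0.21, adjusted p = 0.00044). In Prtg and Dmrt1 the day 9 libraries lay below the day 7 ones. Without RB day 7 replicate 2 the 47 calls between days 7 and 5 became 29. Of the members, 26 had a higher mean at RB day 7 than at female E13.5, against 12 at RB day 9, 22 at RA day 9 and 4 at CT day 9, levels that stand side by side across different strains.

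The sets found in the embryo and in culture overlapped in part. Of the 44 members higher in females at E12.5, 28 were also among the 59 higher under RB at day 7, which is 63.6% of the first set and 47.5% of the second. This lies near the 62.1% of all tested members that were higher under RB at day 7. The 28 include Rec8, Id2, Zglp1, Fut4, Crabp2 and Dusp9. Phlda2 and Calcoco2, with the 2 widest sex differences at E12.5, were not among them. In culture 12 members had no call. Of these, Sp5 passed neither filter and was not tested. Acot9 and Slc22a18 were among the others, and Acot9 had 35.6 and 39.5 RPM under RB and 40.2 and 43.9 RPM under CT at day 7.

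The Stra8 experiment tested 97 members, with Cacng4, Cubn, Pwwp2b, Sp5 and Tox3 under the filter. Stra8 itself, at RB day 9, had 105, 77.9, 122 and 483 RPM in the Stra8-/- libraries (in the order SK1, SK2, SK1 and SK3, which holds for all knockout values here) and 1813 and 1717 RPM in the wild type libraries. The SK3 library stood above the other 3, and likewise at day 7 with 204 against 29.3 to 33.3 RPM. The deleted part is not given in the sources used here, so reads from the 3′ end may lie outside it. At CT day 3 and RB day 5 there were 0 calls among the members by the limma test, where 0.00819% of genes were higher at day 3 and 0.0164% lower at day 5, and an unadjusted p below 0.05 gave 5 higher and 2 lower at day 3 and 2 and 10 at day 5. At day 7, 4 members were higher in the knockout and 8 lower (3.16% and 5.57% of all 12206 genes). These 12 calls became 7 when either wild type library was left out.

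At day 9, 35 of 97 members were higher in knockout cells, 1 was lower and 61 were not called, where 10.8% of all genes were higher and 8.35% lower. The median was 0.80 log2 units over the members and 0.09 over all genes. Without wild type replicate 2 there were 19 higher and 1 lower, and without SK3 34 higher and 1 lower. Calcoco2 had 184, 137, 214 and 180 RPM in knockout libraries and 43.7 and 36.5 RPM in wild type ones (2.12 ± 0.16, adjusted p = 4.32e-12). Rgs10 had 201, 191, 215 and 206 RPM in knockout libraries and 46.2 and 56.7 RPM in wild type ones (1.97 ± 0.35, adjusted p = 3.49e-05). Every knockout library was above both wild type libraries for these genes. Ccnd1, called in no comparison of RB with CT in the other line, had 75.3, 56.9, 48.3 and 39.4 RPM in knockout libraries and 7.55 and 16.4 RPM in wild type ones (2.16 ± 0.39, adjusted p = 4.21e-05). Efna4 had 25.6, 22.9, 28.2 and 24.7 RPM in knockout libraries and 6.72 and 2.81 RPM in wild type ones (2.28 ± 0.37, adjusted p = 9.33e-06). Dmrt1 had 209, 197, 217 and 218 RPM in knockout libraries and 88.1 and 60.4 RPM in wild type ones (1.51 ± 0.15, adjusted p = 2.41e-09). In all of these the knockout libraries were the high ones with no overlap.

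The member lower at day 9 was Msx1as, with 9.09, 12.4, 4.31 and 5.41 RPM in knockout libraries and 27.7 and 30.0 RPM in wild type ones (-1.86 ± 0.49, adjusted p = 0.00294). With a pseudocount of 0.1 RPM this call was lost (-1.99). It was lower at day 7 too, with 1.85, 0.851, 0.897 and 1.05 RPM in knockout libraries and 23.2 and 14.6 RPM in wild type ones (-3.19 ± 0.49, adjusted p = 2.9e-05). Rec8 was called lower at day 7, with 142, 131, 96.4 and 95.1 RPM in knockout libraries and 274 and 236 RPM in wild type ones (-1.15 ± 0.24, adjusted p = 0.000949). At day 9 Rec8 had 522, 444, 382 and 381 RPM in knockout libraries and 275 and 254 RPM in wild type ones (0.69 ± 0.24, adjusted p = 0.0206, under the limit of 1). The knockout was the low group for Rec8 at day 7 and the high group at day 9. Among the BMP targets tested, 7 of 16 were higher in the knockout at day 9, with Id2 at 216, 275, 260 and 237 RPM against 108 and 111 RPM in wild type (1.16 ± 0.20, adjusted p = 3.24e-05), and 0 were lower. Of 16 retinoic acid targets, 8 were higher and 1, Stra8, was lower.

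Some libraries held spike-in RNA and others did not. At day 9 the median member difference was 0.69 between the 1 knockout and 1 wild type library with spike-in and 0.95 between the 3 and 1 without. Summed markers of blood and endothelium were 66.7 to 110 RPM in knockout libraries and 22.9 to 36.9 RPM in wild type ones, with 7 and 9 of 13 at 0, and those of fibroblasts 114 to 147 RPM and 85.7 to 96.5 RPM, with 1 and 2 of 9 at 0. Germ cell markers summed to 2990 to 3140 RPM in knockout libraries and 4680 to 5300 RPM in wild type ones at day 9. At day 7 they summed to 2970 to 3680 RPM and 2770 to 2850 RPM. The part of all these markers in the difference was not tested.

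**Figure D5:**
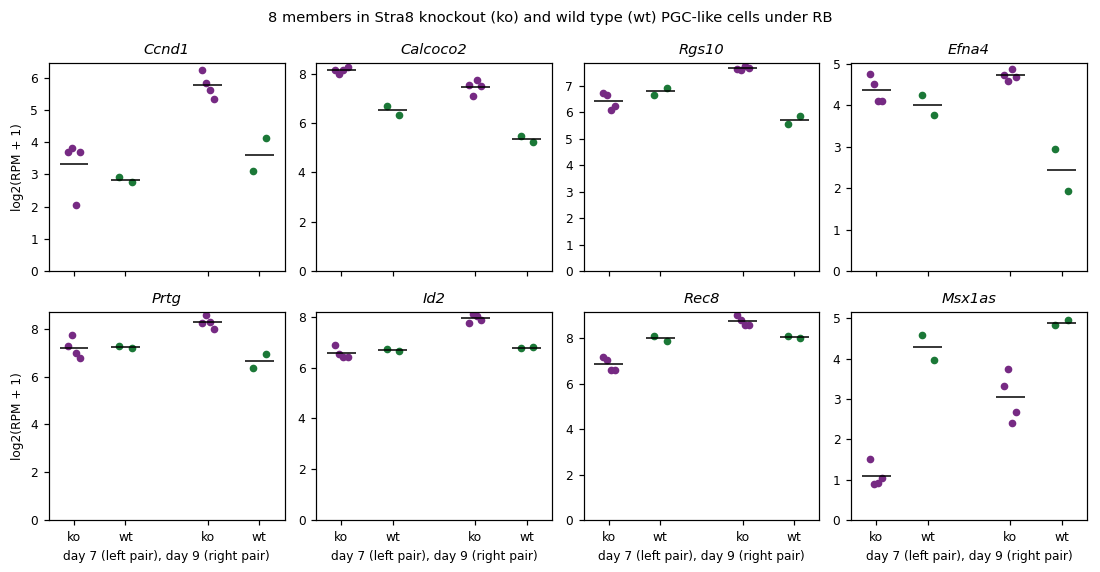
Levels of 8 members as log2(RPM + 1) under RB at day 7 (left pair) and day 9 (right pair), with Stra8 knockout left of wild type in each pair. Points are libraries (4 knockout, 2 wild type) and bars are means; the knockout libraries lie above wild type at day 9 except in Msx1as, and Rec8 changes sides between the days.

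The knockout difference grew between the days. Comparisons between days in the knockout, and of the change itself, were added after the data had been seen. Wild type RB day 9 against day 7 had 0 members higher and 8 lower (9.19% and 6.6% of all genes; 0 higher and 21 lower at an unadjusted p below 0.05). Knockout RB day 9 against day 7 had 25 higher and 3 lower (9.82% and 2.76%), with medians of 0.55 over the members and 0.18 over all genes. In knockout cells summed markers of gonadal somatic cells were 50.6 to 79.9 RPM at day 9 and 27.0 to 38.9 RPM at day 7 (4 of 18 at 0 on both days), and those of blood and endothelium 66.7 to 110 RPM and 140 to 212 RPM (7 and 9 of 13 at 0). Their part was not tested. The change of the knockout minus wild type difference, day 9 less day 7, was called upwards in 27 members and downwards in 0 (5.27% and 2.38%), with medians of 1.01 and 0.17, and no member was lower at an unadjusted p below 0.05. Rgs10 changed by 2.34 ± 0.49 (adjusted p = 0.0021). It had 104, 100, 67.3 and 75.1 RPM in knockout libraries and 101 and 120 RPM in wild type ones at day 7, where the groups overlapped, and lay apart at day 9. Prtg changed by 1.68 ± 0.38 (adjusted p = 0.0037), with 301, 384, 315 and 257 RPM in knockout libraries and 81.4 and 121 RPM in wild type ones at day 9.

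Single libraries moved these counts. The 8 wild type calls became 2 without day 7 replicate 1, 5 without day 7 replicate 2 and 3 without day 9 replicate 2. The 27 changes became 13 and 17 without wild type day 7 replicates 1 and 2, 11 without wild type day 9 replicate 2, 17 without the second SK1 library of day 7, and 13 with median centring. For knockout day 9 against day 7, median centring gave 17 higher and 4 lower (789 and 614 of all genes). Quantile normalization gave 19 and 6 (821 and 772). Of the 12 members that fell in the 129S1:C57BL/6 line between RB days 7 and 9, 9 were among the 35 higher in the knockout at day 9 (75.0% and 25.7% of the sets, where 36.1% of all tested members were higher in the knockout), Prtg, Dmrt1, Calcoco2 and Efna4 among them. Of the 12, 5 were among the 8 that fell in wild type cells (41.7% and 62.5%), namely Calcoco2, Dmrt1, Efna4, Kcnh2 (a potassium channel) and Sirpa.

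Libraries without a replicate are given as values. In the C57BL/6 line at day 9 (1 library each, no test), 56 of 87 members that reached 5 RPM were at least 1 log2 unit higher in the RB than in the CT library and 2 were at least 1 lower, against 15.2% and 5.84% of all genes. Rec8 had 134 RPM under RB and 12.1 RPM under CT, Rgs10 105 and 3.41 RPM, and Zglp1 31.1 and 0.62 RPM. Spike-in RNA summed to 9.17 RPM in this RB library and to 27190 RPM in the CT library. Treatment and this difference in preparation cannot be told apart. At day 2 of that line 11 of 49 were higher and 7 lower, against 1.94% and 3.86%. Under 0R3B at day 9 in the 129S1:C57BL/6 line, Rec8 had 302 RPM, Calcoco2 4.84 RPM, Efna4 2.23 RPM and Phlda2 39.4 RPM. The Calcoco2 and Efna4 values lay below both RB libraries of that day, and the Rec8 value above both.

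In the genome the members were spread over many chromosomes, with 13 of the 102 (12.7%) on chromosome 7, where 7.76% of the genes tested lie. There were 5 pairs with starts or ends within 500 kb of each other. Such pairs were not counted among other genes, so the pairs are a description of position only. Beside Phlda2 and Slc22a18, these included Zglp1 and Pde4a, a phosphodiesterase gene, 98.6 kb apart on chromosome 9, and Tmem159 and Crym, 65.4 kb apart on chromosome 7. Zglp1 and Pde4a were both among the 28 members shared by the female set at E12.5 and the RB set at day 7.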

How the data were processed

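The series holds 75 mouse libraries made by sequencing the 3′ ends of transcripts amplified from 1 ng of RNA. Per the submitters' processing notes, the tools were TopHat 1.4.1 with Bowtie 1.0.1, Cufflinks 2.2.0 and cutadapt 1.11, on mm10. The deposited table holds a signal in RPM for 26218 genes and 96 spike-in transcripts, scaled by the authors to reads assigned to genes. Here 2777 values above 0 and under 0.001 RPM were set to 0, and spike-in rows stayed out of the tests. Per-read steps gave the depth. Counting limits cover counting error only, and low values were whole within 0.05 reads in 81.2 to 93.2% of cases.

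Tests used limma 3.58.1 in R 4.3.3 (lmFit, eBayes with trend) on log2(RPM + 1), which understates the change of low genes. Tested genes reached 5 RPM in 2 or more of an experiment's libraries. The 3 fits, with 1 mean per group, covered 12567, 11873 and 12206 genes, and Benjamini-Hochberg adjustment ran over all of them. The fits were tested on simulated data. The members and lists were chosen with earlier results of these data known. Genes are named where they were among the 12 highest at female E13.5, the 5 widest calls each way with at least 10 RPM, in a list, or next to the limits of the rule. Tmem159 is named for its position alone. Alternatives were 2 other pseudocounts, no filter, no fold limit, 2 scalings, a replicate block, averaged SK1 libraries and leaving out libraries. Replicate numbers were not taken to pair the samples, and pairing was not checked in the Stra8 experiment. One member that this rule names is not reported here.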

Additional observations from a re-analysis of the deposited data

Results flagged for a closer look

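The female minus male difference at E14.5 less that at E12.5 passed the limma test in 51 members, 7 upwards and 44 downwards. These were 6.86% and 43.1% of the members, against 19.8% and 23.2% of all genes. Such a change was thus common among all genes, and the members differed in its direction, with more changes downwards and fewer upwards.

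The knockout minus wild type difference at day 9 less that at day 7 passed the limma test in 27 members, 27 upwards and 0 downwards, in a comparison added after the data had been seen. The shares of all genes were 5.27% and 2.38%. The count was 11 without wild type day 9 replicate 2, 13 without wild type day 7 replicate 1 and 13 with median centring.

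A difference also appeared in libraries that the tests did not use. In the single C57BL/6 libraries of day 9, 56 members were at least 1 log2 unit higher under RB than under CT, with a median of 1.37 log2 units over the 87 members and 0.17 over all genes. This difference has no replicate check, and the CT library held spike-in RNA (27190 RPM) where the RB library held almost none (9.17 RPM).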

How the results depend on the processing

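Counts are members called in either direction. The rule gave 102 members, 265 at a threshold of 1.0, 40 at 2.0, 42 with a pseudocount of 5 RPM, 61 at a level of 20 RPM, and 88 to 129 when 1 library was left out. With a pseudocount of 5 RPM there were 25 calls for female E14.5 against female E12.5 (41 as reported), 37 for female against male E14.5 (56), 4 for male E13.5 against male E12.5 (12), 30 for male E15.5 against male E13.5 (56), 25 for RB against CT day 9 (39), 14 for RA against CT day 7 (23), 21 for RA against CT day 9 (36), 6 for Stra8 knockout against wild type day 7 (12) and 3 for wild type RB day 9 against day 7 (8). A pseudocount of 0.1 RPM gave 7 for male E13.5 against male E12.5, 12 for RB against RA day 7 (19) and 16 for the change of the knockout minus wild type difference (27). Without a filter there were 6 for male E13.5 against male E12.5 and 1 for RB against RA day 5 (3). Without a fold limit there were 14 for wild type RB day 9 against day 7 and 46 for knockout RB day 9 against day 7 (28). Quantile normalization gave 15 for RA against CT day 7, median centring 13 for the change of the knockout minus wild type difference, and averaging the SK1 libraries 1 for Stra8 knockout against wild type day 5 (0). Leaving out 1 library gave 3 to 9 for male E13.5 against male E12.5, 1 to 3 for RA against CT day 5, 13 to 18 for RA against CT day 7, 0 to 2 for RB against RA day 5, 8 to 16 for RB against RA day 7, 29 to 41 for RB day 7 against day 5 (47), 7 to 11 for Stra8 knockout against wild type day 7, 20 to 37 for day 9 (36), 2 to 8 for wild type RB day 9 against day 7 and 11 to 31 for the change of the knockout minus wild type difference. The cause of these changes was not tested. Single genes were recomputed only for the widest calls, 144 results, and none of these changed direction.

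With the replicate block the counts moved little, for example 59 for RB against CT day 7, 46 for female against male E12.5 and 35 for Stra8 knockout against wild type day 9. Deviations of same-numbered libraries had correlations of -0.07 to 0.05 in the embryo and -0.07 to 0.24 in the 129S1:C57BL/6 line. In that line 11 of 55 pairs of groups were above 0.1, and the numbers were not taken to pair the samples. The Stra8 experiment was not checked in this way. There the wild type RB day 9 libraries held 48450 RPM (replicate 1) and 36.0 RPM (replicate 2) of spike-in RNA. Depth limits genes near 3 reads, 0.192 to 2.78 RPM by library.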
